A study of Homo sapiens with 6 samples.

Results

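Prostaglandin synthesis and signalling was examined in LX-2 cells given transforming growth factor beta 1 (TGF-β1) through 10 genes that act in this pathway. The genes were taken by name, with earlier results of these data known, and each is reported whatever its values. They are the cyclooxygenases PTGS1 and PTGS2 and the prostaglandin E synthases PTGES, PTGES2 and PTGES3. The others are the prostacyclin synthase PTGIS, the degrading enzyme HPGD, and the receptors PTGER2, PTGER4 and PTGFR. All 10 had a row among the 27830 genes of the deposited table, and 8 of the 10 had enough reads to be tested. LX-2 is an established human hepatic stellate cell line, immortalised with the SV40 large T antigen, and stands as 1 line for the stellate cell. One group of 3 samples was activated with TGF-β1 at 10 ng/ml for 24 h, against 3 control samples of the same line. TGF-β1 was given without serum, according to the labels, which leave the medium of the control cells unstated, so TGF-β1 and serum cannot be told apart in any difference given here. Whether replicates were separate cultures is not stated either, and p-values measure only the spread between these libraries, which could be technical.

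Prostaglandins are local lipid mediators. Phospholipases free arachidonic acid from membranes, a cyclooxygenase turns it into prostaglandin H2, and terminal synthases convert that into prostaglandin E2, prostacyclin and the other prostanoids. Prostaglandin E2 acts on neighbouring cells through EP receptors, of which EP2 and EP4 raise cyclic AMP, and it is cleared by uptake and oxidation. In hepatic stellate cells, the collagen-producing pericytes of the liver, cyclic AMP is known to oppose activation, while PTGS2 is known to be induced by inflammatory cytokines.

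Total counts ran from 13866957 to 16454700 in the TGF-β1 libraries and from 14118402 to 17694675 in the control libraries, and the detection floor of 3 reads was worth 0.175 to 0.221 CPM, counts scaled to a common library size. This floor covers counting error only, while the intervals of differences below come from the fit over libraries. Of the stellate cell and fibroblast markers, 15 of 16 were in the table. Their summed level was 4192 to 4741 CPM with TGF-β1 and 3782 to 4038 CPM in controls, mostly from COL1A1, VIM and SPARC. The higher sum was not shared by all markers. Of the 11 tested, 4 had a positive log2 difference, TGF-β1 over control (COL1A1, COL3A1, COL5A1 and SPARC). The other 7 had a negative one, among them VIM at -0.21, without overlap, and ACTA2 at -0.08. COL3A1 at 0.71 (edgeR adjusted p = 0.0350) and COL5A1 at 0.72 (edgeR adjusted p = 0.0418) were called higher. No other tested marker of this list was called, and 0.187% of all tested genes were called higher. The stellate markers DES and LRAT stood near 0, at no more than 5 counts in any library. DCN, PDGFRA and LUM were also low, at no more than 6, 12 and 14 counts. Hepatocyte markers (4 of 8 in the table) summed to 55.9 to 71.7 CPM with TGF-β1 and 50.2 to 53.8 CPM in controls, mostly from CPS1 and SERPINA1, while APOA1 and APOB had at most 1 count in any library. Leukocyte markers (4 of 8) summed to 11.0 to 11.6 CPM with TGF-β1 and 13.2 to 18.3 CPM in controls, nearly all of it from CD14. Endothelial markers (6 of 6) lay at 7.95 to 9.05 and 7.31 to 8.91 CPM in TGF-β1 and control libraries. Epithelial markers (4 of 5) lay at 71.2 to 81.3 and 73.9 to 86.8 CPM, nearly all of it from SOX9. EPCAM and KRT19 had no more than 2 counts in any library. The part of these levels in the results was not tested. In such bulk samples fewer cells of a type and less RNA per cell cannot be told apart.

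On a length-corrected scale the 10 genes spanned a wide range of expression. PTGES3, a co-chaperone of HSP90 that also has prostaglandin E synthase activity, had the highest level, with a mean of 119 FPKM (fragments normalised for transcript length and sequencing depth) over the 6 libraries and a range of 110.7 to 131.8. PTGES2, a membrane-associated prostaglandin E synthase, followed at 10.1 FPKM (range 8.49 to 12.3), and PTGER4, which encodes the EP4 receptor, at 6.56 FPKM (range 4.86 to 7.60). These levels were separated from each other and from every other gene of the set in all 6 libraries.

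PTGS2 (2.45 FPKM, range 1.67 to 2.93), PTGER2 (2.10 FPKM, range 1.87 to 2.68) and PTGFR (1.65 FPKM, range 1.06 to 2.60) came next, each overlapping its neighbour in this order. PTGES averaged 0.386 FPKM and PTGS1 0.0922 FPKM, and their ranges overlapped too. HPGD and PTGIS were at the bottom of the order, with at most 2 counts and 1 count in any library.

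With all counts as deposited, none of the 8 tested genes passed the edgeR test at an adjusted p of 0.05, in either direction, against 0.187% of all 14463 tested genes called higher and 0.18% called lower. DESeq2 gave no adjusted p for PTGS1 and PTGES and called none of the other 6, where 0.914% of the genes with an adjusted p were called lower. Limma voom called none of the 8 and 0.201% of all tested genes lower. At an unadjusted p under 0.05, 3 of the 8 were lower (PTGS1, PTGS2 and PTGES) and 0 were higher, against 4.49% of all tested genes lower and 11.1% higher. In 4 of the 8 (the same 3 and PTGER4) every TGF-β1 library lay below every control library, and in 0 every one lay above, against 9.12% and 7.93% of all tested genes. The median log2 difference, TGF-β1 over control, was -0.24 over the 8 genes and 0.01 over all tested genes. PTGS1 reached the filter on low counts, 0.613 CPM in 3 libraries, through its control libraries alone, and PTGES through its controls and 1 TGF-β1 library. For these 2 genes a lower TGF-β1 level is therefore partly built into being tested, and the counts and median above carry no weight as support.

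**Figure D1:**
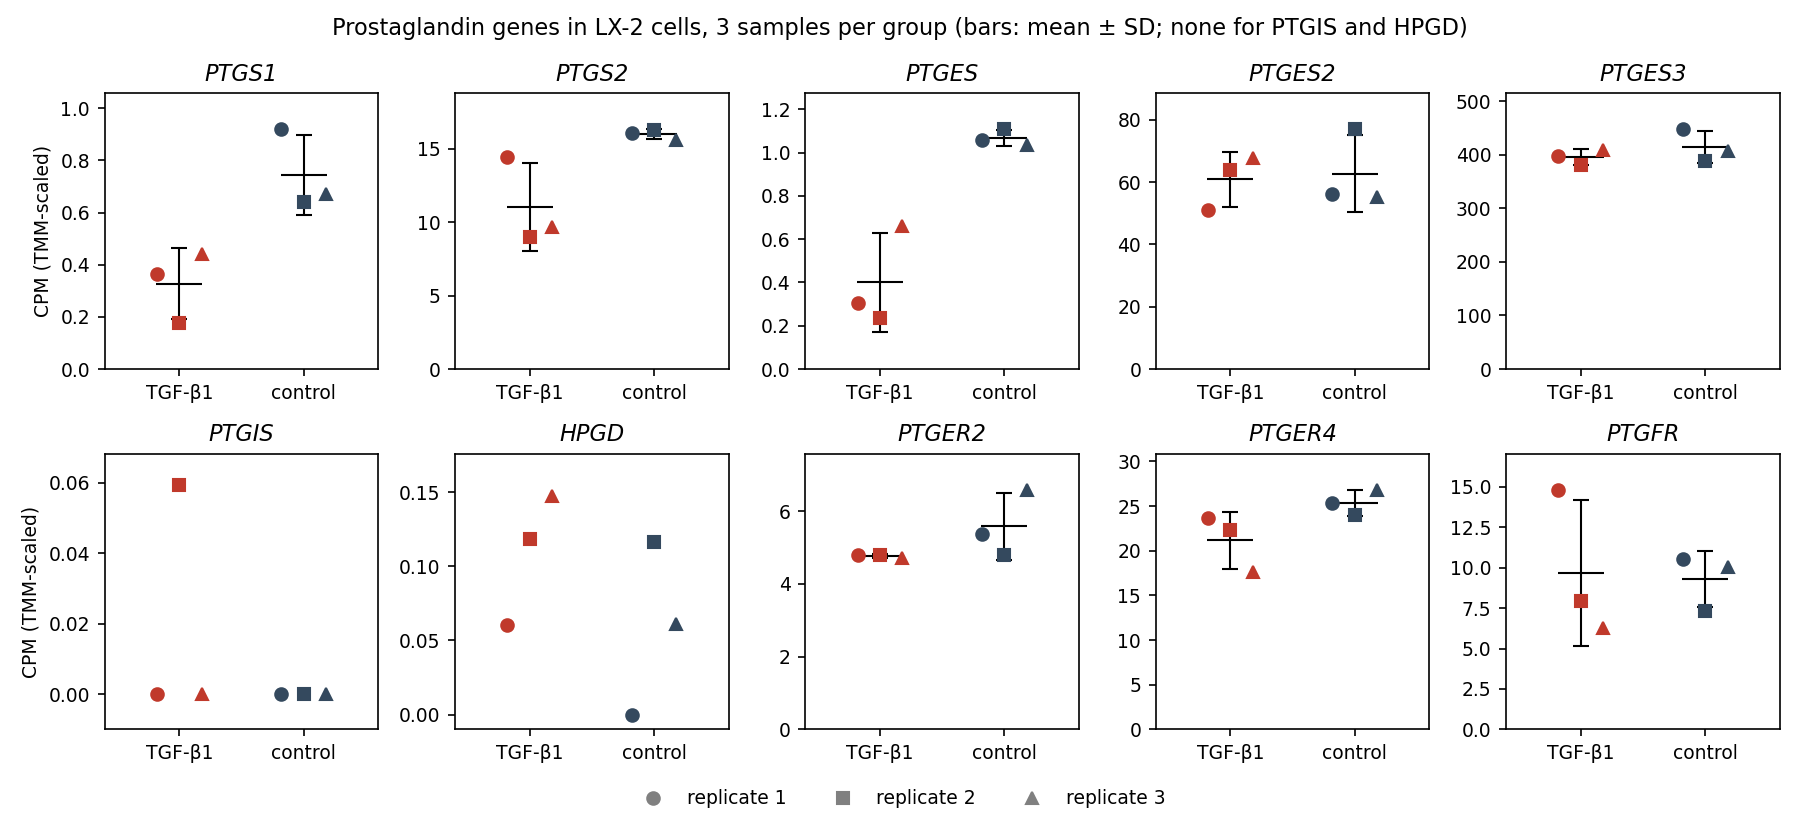
CPM of each of the 10 prostaglandin genes (vertical axis, own linear scale per panel) in the 3 TGF-β1 and 3 control libraries; marker shape gives the replicate number, and black bars the mean ± SD, left out for PTGIS and HPGD. PTGS1, PTGS2, PTGES and PTGER4 lie lower in all TGF-β1 libraries than in any control library, while PTGES2, PTGES3, PTGER2 and PTGFR overlap.

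The cyclooxygenases catalyse the committed step of the pathway. PTGS2, the inducible enzyme (chr1:186671791-186680427, minus strand, GRCh38), had 238, 151 and 131 counts in TGF-β1 replicates 1 to 3, or 14.5, 8.95 and 9.64 CPM. The control libraries held 227, 279 and 256 counts, or 16.0, 16.3 and 15.6 CPM. The controls were nearly level, whereas TGF-β1 replicate 1 stood well above the other 2 treated libraries and just under the controls. PTGS2 averaged 11.0 ± 3.00 CPM with TGF-β1 and 16.0 ± 0.336 CPM in controls (SD, n = 3 each). On the log2 scale the difference was -0.53 ± 0.21 (SE; 95% interval -0.98 to -0.09; edgeR adjusted p = 0.244), a 1.45-fold lower level that did not pass the test.

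The deviations of genes in each library varied with base composition, and PTGS2 is an AT-rich transcript, with a GC content of 36.9%. Over the 2180 tested genes with a GC content of up to 40%, the median deviation from each gene's mean was 0.63, 0.20 and -0.18 on the log2 scale in TGF-β1 replicates 1, 2 and 3, against -0.08, -0.42 and -0.09 in the controls of these numbers. TGF-β1 replicate 1 was thus the library richest in AT-rich transcripts, and control replicate 2 the poorest.

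The 1348 tested genes within 2 percentage points of the GC content of PTGS2 had a median log2 difference of 0.47 (quartiles 0.22 and 0.74), against the -0.53 of PTGS2 itself. Relative to the median of these genes, PTGS2 deviated by -0.50, -0.76 and -0.25 in the 3 TGF-β1 libraries, replicate 1 first, and by 0.38, 0.74 and 0.34 in the 3 control libraries. On this scale TGF-β1 replicate 1 was no longer the highest of its group, and the groups were farther apart than in CPM.

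When a smooth trend on GC content was removed from each library before the fit, PTGS2 passed the test. Its log2 difference was then -1.01 ± 0.16 (SE, 95% interval -1.37 to -0.66, edgeR adjusted p = 0.00684). This is 2.02-fold lower with TGF-β1 relative to genes of like GC content, and not a fold of the measured level. The step also removes any difference between the groups that genes of like GC content share, whatever its source. PTGS2 was the only gene of the set called in that fit, in which 1.53% of all tested genes were called lower. The call was kept when any library but 1 was also left out, with adjusted p from 0.00377 to 0.0310 by edgeR; without TGF-β1 replicate 2 the adjusted p was 0.0748. With the counts as deposited but without TGF-β1 replicate 1, the log2 difference of PTGS2 was -0.78 (edgeR adjusted p = 0.0212), where 0.734% of all tested genes were called lower. PTGS2 was lower with TGF-β1 in all 18 alternatives and passed the threshold in 3.

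**Figure D2:**
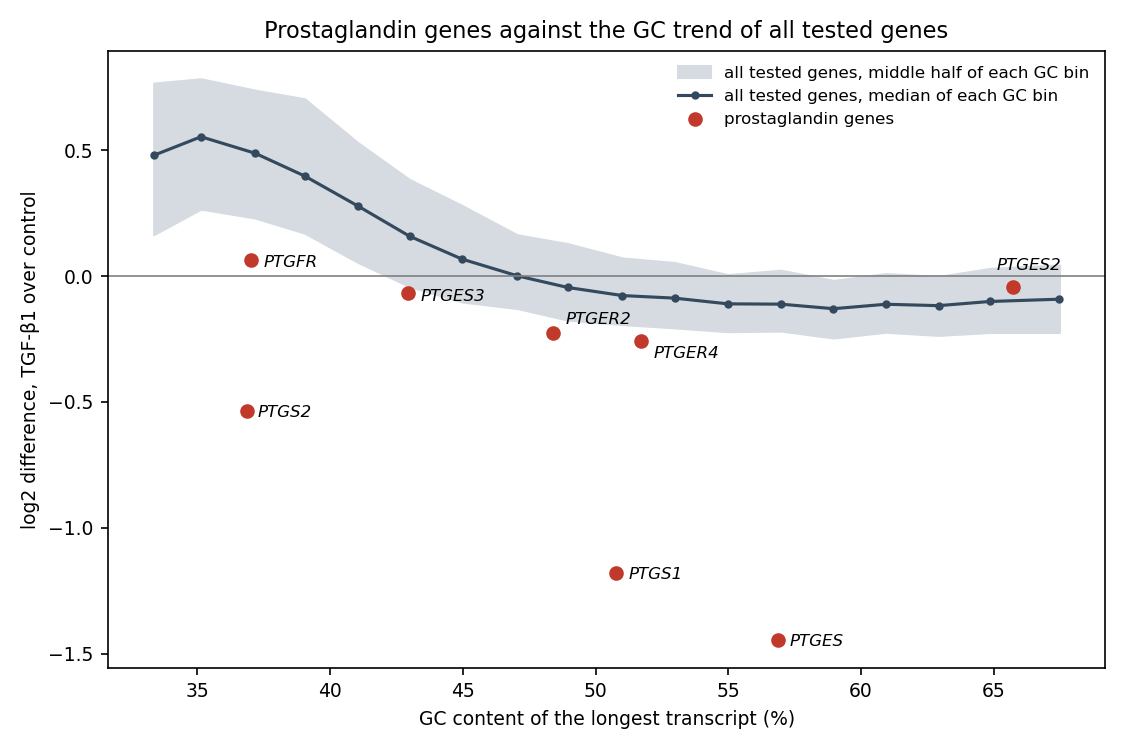
Log2 difference, TGF-β1 over control (vertical axis), against the GC content of the longest transcript in percent (horizontal axis) for the 8 tested prostaglandin genes and, as a line with a shaded band, the median and the middle range of all tested genes in GC bins. PTGS2 at -0.53 stands below the band, whose median is 0.47 at its GC content. PTGFR at 0.06, with nearly the same GC content, is also below the band. Of the other genes, PTGES2 lies inside the band and the rest lie below it.

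PTGS1, the constitutive cyclooxygenase of platelets and many resting tissues (chr9:122370530-122395703, plus strand), was close to the limit of detection. It had 6, 3 and 6 counts with TGF-β1 and 13, 11 and 11 counts in controls, or 0.364, 0.178 and 0.441 CPM against 0.919, 0.641 and 0.670 CPM. All 3 treated libraries lay below all controls, and TGF-β1 replicate 2 was at the floor of 3 counts. PTGS1 averaged 0.328 ± 0.136 CPM with TGF-β1 and 0.744 ± 0.153 CPM in controls (SD, n = 3 each). The fitted log2 difference was -1.18 ± 0.48 (SE; 95% interval -2.22 to -0.13; edgeR adjusted p = 0.263) and did not pass the test. It was negative in all 17 alternatives that gave a value and was called in 0 of them. As PTGS1 reached the filter through its control libraries alone, the shared sign carries no weight as support.

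Almost all cyclooxygenase transcript was PTGS2. Its share of the summed PTGS1 and PTGS2 FPKM was 97.7%, 98.2% and 95.8% with TGF-β1 and 94.8%, 96.4% and 96.1% in controls, and the groups overlapped. The mean share was 97.2 ± 1.22% with TGF-β1 and 95.8 ± 0.818% in controls (SD, n = 3 each). The difference of 1.44 percentage points did not separate the groups (exact permutation test, two-sided, p = 0.3; the smallest p that 3 against 3 allows is 0.1).

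PTGES is the inducible microsomal synthase that is usually coupled to PTGS2 (chr9:129738331-129753047, minus strand). It had 5, 4 and 9 counts with TGF-β1 and 15, 19 and 17 counts in controls, which corresponds to 0.304, 0.237 and 0.662 CPM against 1.06, 1.11 and 1.04 CPM. The controls were level and all above the treated libraries, among which TGF-β1 replicate 3 stood apart from the other 2. PTGES averaged 0.401 ± 0.229 CPM with TGF-β1 and 1.07 ± 0.0362 CPM in controls (SD, n = 3 each). Its log2 difference was -1.44 ± 0.44 (SE; 95% interval -2.41 to -0.47; edgeR adjusted p = 0.169), a 2.72-fold lower fitted level that did not pass. Without TGF-β1 replicate 3 it was -1.96 and passed (edgeR adjusted p = 0.0310), in a fit that called 2% of all tested genes lower. In that fit PTGES reached the filter through its control libraries alone, so the pass carries no weight as support. The GC content of PTGES is 56.9%, and removal of the GC trend left its log2 difference at -1.34 (edgeR adjusted p = 0.106). PTGES was lower with TGF-β1 in all 18 alternatives. As PTGES reached the filter through its controls and 1 TGF-β1 library, the shared sign carries no weight as support.

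The stretches just upstream of the start sites of the 3 genes with the most negative differences are shown because they carry different promoter elements. They are the 250 bases before the annotated start, taken from RefSeq on GRCh38.p14 and read 5′ to 3′ on the strand of the gene. Of the 10 genes, 9 had such a window in the reference table, and PTGIS is named only. Capitals mark matches to the motifs searched on both strands: the TATA box TATAAA, the cyclic AMP response element half-site TGACG, the C/EBP motif TTNNGNAA, a relaxed form of the NF-κB consensus, the GC box GGGCGG, the EGR1 motif GCGTGGGCG, the AP-1 motif TGANTCA and the SMAD motif CAGAC.
PTGS2, chr1:186680424-186680673, minus strand: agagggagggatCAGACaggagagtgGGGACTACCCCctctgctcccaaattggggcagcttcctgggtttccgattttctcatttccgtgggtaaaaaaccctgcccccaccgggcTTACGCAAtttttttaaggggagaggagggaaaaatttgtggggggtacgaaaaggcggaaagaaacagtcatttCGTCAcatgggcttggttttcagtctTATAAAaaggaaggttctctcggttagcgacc
PTGES, chr9:129753043-129753292, minus strand: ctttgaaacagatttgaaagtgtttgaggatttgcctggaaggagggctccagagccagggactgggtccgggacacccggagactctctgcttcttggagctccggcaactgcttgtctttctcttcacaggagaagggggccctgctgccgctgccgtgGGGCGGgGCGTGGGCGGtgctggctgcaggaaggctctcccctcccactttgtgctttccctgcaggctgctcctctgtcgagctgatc
PTGS1, chr9:122370283-122370532, plus strand: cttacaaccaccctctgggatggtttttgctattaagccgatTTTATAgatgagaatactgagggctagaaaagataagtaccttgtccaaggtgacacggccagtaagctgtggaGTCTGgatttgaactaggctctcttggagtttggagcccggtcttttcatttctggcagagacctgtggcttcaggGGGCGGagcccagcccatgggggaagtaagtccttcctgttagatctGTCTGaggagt

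The PTGS2 window held TATAAA at bases 32 to 27 before the start, TGACG on the other strand at 58 to 54, TTACGCAA at 133 to 126, matches to the NF-κB motif at 224 to 215 and, on the other strand, at 223 to 214, and CAGAC at 238 to 234. The C/EBP, cyclic AMP response and NF-κB elements of this promoter are long described. The PTGES window had no TATAAA. It held GGGCGG at 89 to 84 and at 78 to 73 before the start, and GCGTGGGCG at 82 to 74, which overlaps the second GC box. Binding of EGR1 to such GC boxes is known for PTGES. The PTGS1 window shown held GGGCGG at 58 to 53, the letters TATAAA on the other strand at 208 to 203, and CAGAC on the other strand at 134 to 130 and 11 to 7. PTGS1 has a second window in the reference table, chr9:122375052-122375301, not shown. It held the C/EBP motif as TTATGGAA at 115 to 108 and GGGCGG on the other strand at 202 to 197.

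Matches of this kind are frequent, apart from that of EGR1. Among 35116 windows of the same length over all genes, 10.7% held TATAAA, 21.2% TGACG, 33.2% TTNNGNAA, 9.01% the NF-κB motif, 42.6% GGGCGG and 38% CAGAC, while 0.72% held GCGTGGGCG. TGANTCA, in 6.57% of all windows, was not among the letters of these 3 windows. GCGTGGGCG was also present in a PTGES2 window, not shown, at bases 147 to 139 before the start. The log2 difference of PTGES2 was -0.04 (edgeR adjusted p = 0.924). A match is a description of the letters and not evidence that a factor was bound.

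The other 2 prostaglandin E synthases were expressed at higher levels and showed smaller differences. PTGES2 (chr9:128120693-128128462, minus strand) had 51.1, 63.9 and 67.7 CPM with TGF-β1 and 56.1, 76.9 and 55.2 CPM in controls. The groups overlapped, with control replicate 2 the highest and TGF-β1 replicate 1 the lowest. Its log2 difference was -0.04 ± 0.17 (SE; 95% interval -0.41 to 0.33; edgeR adjusted p = 0.924), and it turned to 0.07 when the GC trend was removed.

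PTGES3 (chr12:56663341-56688408, minus strand) had 398, 380 and 409 CPM with TGF-β1 and 447, 388 and 408 CPM in controls. Control replicate 1 was the highest library, and the other 5 were interleaved. This gave a log2 difference of -0.07 ± 0.12 (SE; 95% interval -0.32 to 0.19; edgeR adjusted p = 0.815), and -0.23 with the GC trend removed. The annotation lists 5 PTGES3 pseudogenes, so some of its reads may come from near-identical copies. The one with a row in the table, PTGES3P1, had 23 counts over all 6 libraries. The intervals of PTGES2 and PTGES3 leave room for a change of up to 0.41 on the log2 scale and do not show that the levels were equal.

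PTGIS makes prostacyclin and HPGD, the NAD-dependent 15-hydroxyprostaglandin dehydrogenase, starts the breakdown of prostaglandin E2. Neither was expressed above the floor. PTGIS (chr20:49503874-49568146, minus strand) had 1 count in TGF-β1 replicate 2 and 0 in the other 5 libraries. HPGD (chr4:174490177-174523154, minus strand) had 1, 2 and 2 counts with TGF-β1 and 0, 2 and 1 in controls. No fold is given for either gene, and a change was not detectable at this depth. The log2 ratio of PTGES to HPGD, computed on FPKM + 0.1, was 1.24, 0.906 and 1.81 with TGF-β1 and 2.73, 2.47 and 2.55 in controls. With HPGD under the floor, this ratio follows PTGES and the added 0.1, and it was not tested.

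Of the receptors, EP2 and EP4 couple to Gs and raise cyclic AMP, and the FP receptor PTGFR, which binds prostaglandin F2α, couples to Gq. PTGER2, the EP2 gene (chr14:52314305-52328606, plus strand), had 4.80, 4.80 and 4.71 CPM with TGF-β1 and 5.37, 4.78 and 6.58 CPM in controls. The treated libraries were close to each other, and control replicate 2 lay among them. On the log2 scale the difference was -0.23 ± 0.21 (SE; 95% interval -0.68 to 0.23; edgeR adjusted p = 0.635).

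PTGER4 (chr5:40679498-40693735, plus strand) had 23.6, 22.3 and 17.6 CPM with TGF-β1 and 25.3, 24.0 and 26.8 CPM in controls. All treated libraries were below all controls, TGF-β1 replicate 1 narrowly so. The fitted log2 difference was -0.26 ± 0.17 (SE; 95% interval -0.63 to 0.11; edgeR adjusted p = 0.487), and -0.18 with the GC trend removed. Of the 2 PTGER4 pseudogenes in the annotation, PTGER4P2 had 13 counts over all libraries.

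The balance of the cyclic AMP-raising receptors was compared within each library. The log2 ratio of PTGER4 to PTGER2 FPKM was 1.73, 1.64 and 1.33 with TGF-β1 and 1.67, 1.75 and 1.47 in controls. The groups overlapped, with means of 1.57 ± 0.208 and 1.63 ± 0.144 in TGF-β1 and control libraries (SD, n = 3 each). The difference of -0.06 was smaller than the spread (exact permutation test, two-sided, p = 0.6), and it was 0.0559 without TGF-β1 replicate 3.

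PTGFR (chr1:78303884-78539749, plus strand) had 14.8, 7.95 and 6.25 CPM with TGF-β1 and 10.5, 7.34 and 10.1 CPM in controls. TGF-β1 libraries gave both the highest and the lowest value. Its log2 difference was 0.06 ± 0.30 (SE; 95% interval -0.59 to 0.72; edgeR adjusted p = 0.940). PTGFR has a GC content of 37.0%, like PTGS2. With the GC trend removed its log2 difference was -0.43 (95% interval -0.77 to -0.08; edgeR adjusted p = 0.159), so its direction depended on that step, and no call was made either way.

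**Figure D3:**
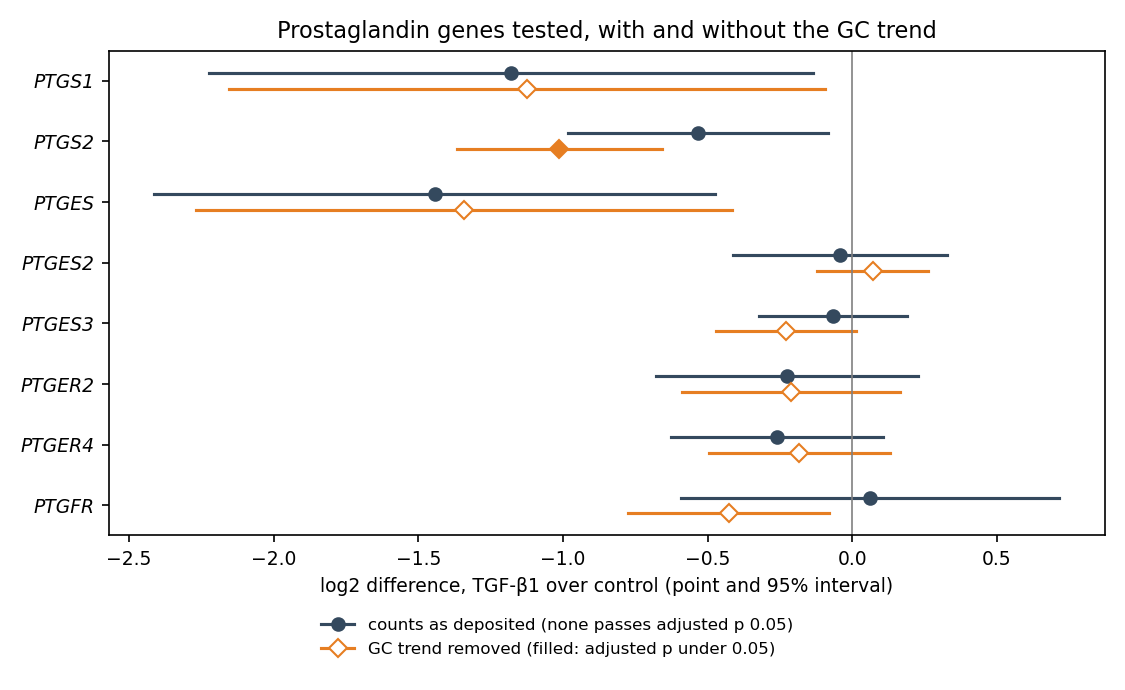
Log2 difference, TGF-β1 over control, with its 95% interval (horizontal axis) for the 8 tested genes (rows), with counts as deposited (dark circles) and with the GC trend removed (orange diamonds, filled where the adjusted p was under 0.05). PTGS2 is at -0.53 and -1.01 in the 2 fits and is the single filled diamond; PTGFR changes sign, at 0.06 and -0.43.

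The rest of the pathway was read from 7 lists of 86 genes, of which 80 were in the table and 66 were tested. The 6 genes without a row are not analysed here. None was called in either direction by edgeR, and 2 of the 66 were higher and 5 lower at an unadjusted p under 0.05, against 11.1% and 4.49% of all tested genes. DESeq2 called 1 lower (EGR1), against 0.914% of all genes it gave an adjusted p, and limma voom called 0. The groups did not overlap in 5 genes that were higher and 7 that were lower with TGF-β1, of the 66, against 7.93% and 9.12% of all tested genes. The median log2 difference was -0.06 over the 66 genes, with 26 positive and 40 negative values, against 7380 positive and 7083 negative over all tested genes.

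Upstream of the cyclooxygenases, the list of arachidonate release had 10 tested genes of 15, with a median log2 difference of -0.09. S100A10, the annexin A2 partner that binds cytosolic phospholipase A2, had 217.9, 248.9 and 273.5 CPM with TGF-β1 and 324.7, 346.9 and 313.5 CPM in controls. All treated libraries were lower. This gave a log2 difference of -0.41 ± 0.13 (SE; edgeR adjusted p = 0.167) as deposited and -0.31 with the GC trend removed, where it passed (edgeR adjusted p = 0.0467). S100A10 passed in 2 of 18 alternatives, with adjusted p from 0.0252 to 0.434, and with the GC trend removed the call was lost when any library but TGF-β1 replicate 3 was left out. ANXA1, annexin A1, a glucocorticoid-induced inhibitor of phospholipase A2, averaged 332 ± 83.9 CPM with TGF-β1 and 246 ± 27.9 CPM in controls (SD, n = 3 each). Its log2 difference of 0.44 (edgeR adjusted p = 0.271) became 0.07 when the GC trend was removed. PLA2G4A, the cytosolic phospholipase itself, was chosen for mention after its values were seen: it had 50, 13 and 6 counts with TGF-β1 and 12, 14 and 12 in controls. TGF-β1 replicate 1 alone set it apart, and the log2 difference was 0.85 ± 0.60 (SE; edgeR adjusted p = 0.532).

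Of the other prostanoid synthases and reductases, all 6 in the table were tested, with a median of -0.17. TBXAS1, thromboxane synthase, averaged 1.74 ± 0.107 CPM with TGF-β1 and 2.02 ± 0.163 CPM in controls, with no overlap (SD, n = 3 each; log2 difference -0.21; edgeR adjusted p = 0.741). AKR1B1, an aldo-keto reductase able to make prostaglandin F2α, had a log2 difference of -0.19 and CBR1, a carbonyl reductase that acts on prostaglandin E2, one of 0.04. For CBR1, 18.9% of the exon bases overlap another gene, and AKR1B1 has 7 annotated pseudogenes. Among transport and inactivation genes, 5 of 8 were tested (median 0.06). PTGR1, a prostaglandin reductase, averaged 101 ± 6.72 CPM with TGF-β1 and 108 ± 1.53 CPM in controls (SD, n = 3 each; log2 difference -0.10; edgeR adjusted p = 0.734).

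Of the other receptors and partners, 4 of 7 were tested (median -0.07). The prostacyclin receptor PTGIR had a log2 difference of -0.08 and PTGFRN, a membrane protein that inhibits ligand binding to PTGFR, one of 0.09. The lipoxygenase and leukotriene list had 7 tested genes of 13 (median -0.13). In it LTA4H, which makes leukotriene B4, had a log2 difference of 0.19, and the glutathione transferases MGST3 and MGST2 had -0.05 and 0.10.

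Downstream of EP2 and EP4, all 20 genes of cyclic AMP signalling and response were tested, with a median of -0.03. The 2 most abundant, GNAS and PRKAR1A, the Gs α subunit and a regulatory subunit of protein kinase A, had log2 differences of 0.01 and 0.17. PRKACB, a catalytic subunit, had 672, 463 and 275 counts with TGF-β1 and 256, 290 and 317 in controls, and averaged 29.5 ± 10.4 and 18.1 ± 1.21 CPM (SD, n = 3 each). All treated CPM values were above the controls, and the highest was TGF-β1 replicate 1, the library richest in AT-rich transcripts. On the log2 scale the difference was 0.71 ± 0.23 (SE; edgeR adjusted p = 0.192) and 0.26 with the GC trend removed (edgeR adjusted p = 0.236). AREG, amphiregulin, an epidermal growth factor receptor ligand and cyclic AMP target, averaged 6.83 ± 0.766 CPM with TGF-β1 and 10.3 ± 1.64 CPM in controls (SD, n = 3 each), without overlap. Its log2 difference was -0.60 ± 0.20 (SE; edgeR adjusted p = 0.191), and -0.69 with the GC trend removed (edgeR adjusted p = 0.0773).

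Among PTGS2 inducers and mRNA stability factors, 14 of 15 were tested, with a median of -0.07. EGR1, an immediate-early transcription factor that serum is known to induce, had 380, 391 and 298 counts with TGF-β1 and 508, 578 and 835 in controls. It averaged 22.7 ± 0.699 CPM with TGF-β1 and 40.2 ± 9.36 CPM in controls (SD, n = 3 each), with the treated libraries level and all below the controls. The fitted log2 difference was -0.82 ± 0.18 (SE; edgeR adjusted p = 0.0887), short of the threshold; over the alternatives the adjusted p ran from 0.000526 to 0.366. EGR1 was lower in all 18 alternatives and passed in 7. Among these were DESeq2 (adjusted p = 0.00248) and the removal of the GC trend (edgeR adjusted p = 0.0427). Whether serum had a part in the EGR1 difference was not tested, as serum and TGF-β1 cannot be told apart here.

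The cytokine genes of this list, which induce PTGS2, did not pass either. IL1B averaged 1236 ± 91.1 CPM with TGF-β1 and 1077 ± 28.9 CPM in controls, without overlap (SD, n = 3 each; log2 difference 0.20; edgeR adjusted p = 0.434). IL1A averaged 10.0 ± 3.45 and 7.04 ± 0.404 CPM in TGF-β1 and control libraries (SD, n = 3 each), with a log2 difference of 0.51 (edgeR adjusted p = 0.331) that was 0.12 with the GC trend removed. CEBPB, a factor that binds the PTGS2 promoter, had a log2 difference of -0.10.

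**Figure D4:**
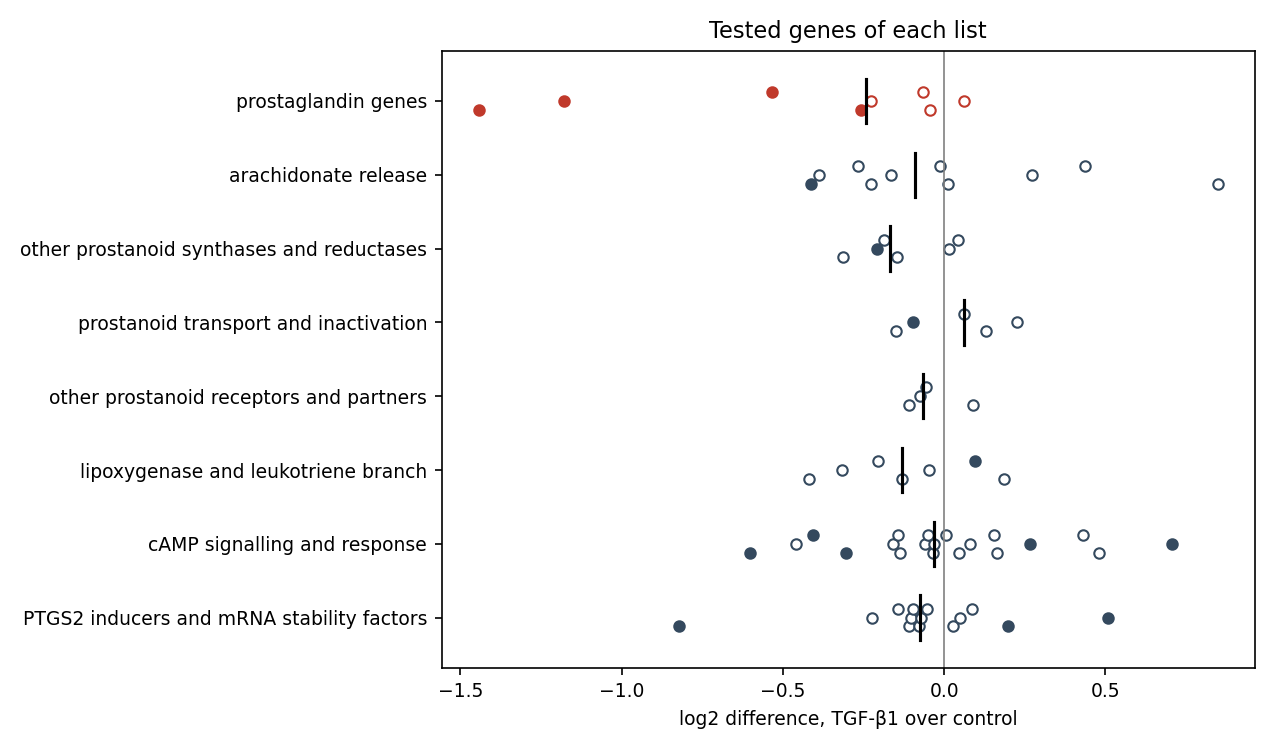
Log2 difference, TGF-β1 over control (horizontal axis), of each tested gene in the 10-gene set (red) and the 7 pathway lists (rows). Filled points mark genes whose groups do not overlap, open points those that overlap, and the black bar is the median of each row, at -0.24 for the prostaglandin genes and between -0.17 and 0.06 for the lists.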

How the data were processed

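RNA sequencing of 3 TGF-β1 and 3 control samples of LX-2 cells was analysed. Per the labels' protocols, sequencing libraries came from a NEBNext Ultra kit without strand marking. HISAT2, HTSeq 0.13.5 and GRCh38 are named in the submitters' processing notes, with no role or order. The annotation release is unknown (not given in the sources used here). In the deposited table are whole-number read counts, not normalized, and FPKM values that the authors computed per gene.

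Counts were tested with edgeR 4.0.16 (R 4.3.3): quasi-likelihood F test, robust fit, TMM scaling, filterByExpr (14463 genes), Benjamini-Hochberg adjustment over all of them, calls at 0.05. CPM values use TMM-scaled totals. GC content is that of the longest GENCODE 29 transcript, matched by Ensembl identifier (26968 of 27830 genes; 99.4% of those tested); the trend was removed per library by loess with span 0.5. Coordinates come from the same annotation. Ratios within libraries were tested by exact permutation.

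The 10 genes and the lists were chosen with earlier results of these data known, including the GC trend. Beside the 10 genes, the rule named from each list any called gene, the 2 of highest FPKM and up to 2 non-overlapping genes of largest difference with a mean of at least 1 CPM; 1 gene it named is not reported here. Alternatives were upper-quartile, DESeq2-type and total-count scaling, no filter, a filter of 1 CPM in 3 samples, DESeq2 1.42.0, limma 3.58.1 (voom, and log2(FPKM + 1) or log2(FPKM + 0.1)), the replicate block, GC removal and leaving out each sample. GC removal combined with leaving out a sample was added after seeing the data. The edgeR fit was tested on simulated data.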

Additional observations from a re-analysis of the deposited data

How the results depend on the processing

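The causes of the shifts given here were not tested. No gene of the 10 was called higher under any alternative. The number called lower, 0 as deposited, was 1 with the GC trend removed (PTGS2), and 0 to 1 when a library was left out (PTGS2 without TGF-β1 replicate 1, PTGES without replicate 3, where it was tested through its controls alone). With both together it was 0 to 3, the 3 being PTGS2, PTGES and PTGES3 without TGF-β1 replicate 3 (PTGES3: log2 difference -0.36, edgeR adjusted p = 0.0383), and 0 without TGF-β1 replicate 2. Of the pathway genes, 1 was called higher without a filter (PRKACB) and 0 to 3 with a library left out. Called lower was 1 with upper-quartile factors, with no filter and with DESeq2 (EGR1 each time), 2 with the GC trend removed, and 0 to 2 with a library left out (0 to 1 with both). Over all genes, 53 calls became 111 with upper-quartile factors, 1240 with no filter, 615 with DESeq2, 446 with the GC trend removed, 4 to 1671 with a library left out (4, 324 and 1671 when this was TGF-β1 replicate 2, 1 or 3, and 13 and 15 for control replicates 1 and 3), and 69 to 1433 with both. The replicate numbers were not treated as pairs in the main fit. Deviations of same-numbered samples had correlations of 0.176, just under 0.1, and -0.355, and some samples were closer to another number. With the GC trend removed these correlations were -0.00247, 0.0841 and -0.180. So few values cannot exclude a batch shared by samples of the same number. With the replicate block, 527 genes were called, among them 1 pathway gene lower (EGR1) and 0 of the 10. With the block and the GC trend removed, 287 were called, 1 of the 10 lower (PTGS2) and 0 pathway genes.

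Log2 differences near 0 changed sign. PTGES2 was 0.0710 with the GC trend removed, 0.0735 with the block too, and -0.14 to 0.14 with a library left out. PTGFR was -0.00675 with voom, -0.00247 on log2(FPKM + 0.1), -0.0106 with the block, -0.43 with the GC trend removed and -0.45 with the block too, and -0.61 to 0.29 with a library left out. After GC removal, alone and with the block, PTGIR was 0.0345 and 0.0335, LTA4H -0.0663 and -0.0633, PRKAR1A -0.19 and -0.19, and CEBPB 0.00651 and 0.00642. GNAS was -0.0241 with upper-quartile factors and -0.00459 with no filter. With a library left out, with or without the GC trend, ranges were -0.0782 to 0.192 for CBR1, -0.152 to 0.0757 for PTGIR, -0.135 to 0.289 for LTA4H, -0.365 to 0.0296 for MGST3, -0.0812 to 0.176 for GNAS, -0.227 to 0.306 for PRKAR1A and -0.180 to 0.0376 for CEBPB. The log2 ratio of PTGER4 to PTGER2 differed by -0.142 to 0.0559 with a library left out. The difference of the PTGES to HPGD ratio, -1.26 on FPKM, was -2.27 on raw counts. Depth limits PTGS1, PTGES, PTGIS and HPGD, which had at most 19 counts in any library.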
